A study of Mus musculus with 20 samples.

Results

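Mature natural killer (NK) cells were compared with CD4 T cells on 4 of the series' 20 arrays, picked by the cell type and genotype in their labels. Both NK samples were bone marrow cells from mice of the 129 strain with the genotype Rag2-- Ets1++, which lack Rag2 and carry intact Ets1. Both CD4 T samples were bone marrow cells from wild type C57bl/6 mice. All 4 samples came from mice aged 8 to 14 weeks, were sorted directly into lysis buffer and were amplified in 2 rounds before hybridisation to Affymetrix mouse arrays. The series was designed around Ets1, a transcription factor, and its dependent genes in NK cells, and this comparison sets NK cells with intact Ets1 beside another mature lymphocyte. Mice without Rag2 cannot rearrange antigen receptor genes and have no T or B cells, whereas the C57bl/6 mice had both. Strain, Rag2 genotype and cell type differed together, so that their shares in any difference below cannot be told apart. Transcripts of the Y chromosome differed with them, as given below. The labels do not say that the replicates came from separate mice. The p-values rest on the spread between replicates within all 9 groups of the 20 arrays, and that spread may be technical.

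NK cells and T cells descend from common lymphoid progenitors and both can kill or secrete cytokines, but they recognise their targets differently. A T cell uses a rearranged antigen receptor that signals through the CD3 chains, with CD4 as a coreceptor for peptides on MHC class II. An NK cell weighs germline-encoded activating receptors, which signal through adaptor proteins, against inhibitory receptors that read MHC class I, and it releases perforin and granzymes from preformed granules. NK cells mature in the bone marrow, where part of the population divides, while CD4 T cells mature in the thymus and return to the marrow from the blood.

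Levels are given as log2 intensity, so that a difference of 1 is a 2-fold difference, and differences are NK minus T with the standard error (SE) of the fit. The array medians of the 4 samples lay between 3.79 and 3.83. Levels near or below these medians have no detection call, and the size of a difference that reaches down to them rests on the low end of the scale. Replicate arrays correlated at 0.993 in NK cells and 0.979 in T cells over all genes tested, against 0.867 to 0.882 between the cell types. The actin probe sets at the 3' end read above those at the 5' end. The gap was 2.90 and 2.76 log2 units in NK cells and 0.97 and 1.23 in T cells. For the Gapdh probe sets it was 3.31 and 3.28 in NK cells and 2.40 and 2.54 in T cells, closer between the groups. This measure of RNA or amplification quality thus differed between the groups. Its part in the results was not tested.

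Of 13479 genes tested, 1921 were higher in NK cells (14.3% of genes tested) and 1381 were lower (10.2%) at an adjusted p below 0.05 in limma's moderated test. The shares of 14.3% and 10.2% are the background for the counts of each gene list below. At an unadjusted p below 0.05 the number in either direction was 4638. Differences of at least 2 log2 units were found for 589 of the higher and 341 of the lower genes, and the median difference over all genes was 0.02. The 2 NK arrays did not overlap the 2 T arrays for 9372 genes (69.5%), so that a lack of overlap alone says little here. In a stricter test against a difference of 2-fold, 546 genes were higher and 303 lower. Of all calls 58.2% were higher in NK cells. That share rose to 74.9%, with 2435 higher and 814 lower, when arrays were centred on housekeeping genes, which moved the median of all genes to 0.30. Leaving out T array 2 brought the higher genes to 1205, and leaving out NK array 1 brought the lower genes to 761.

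**Figure D1:**
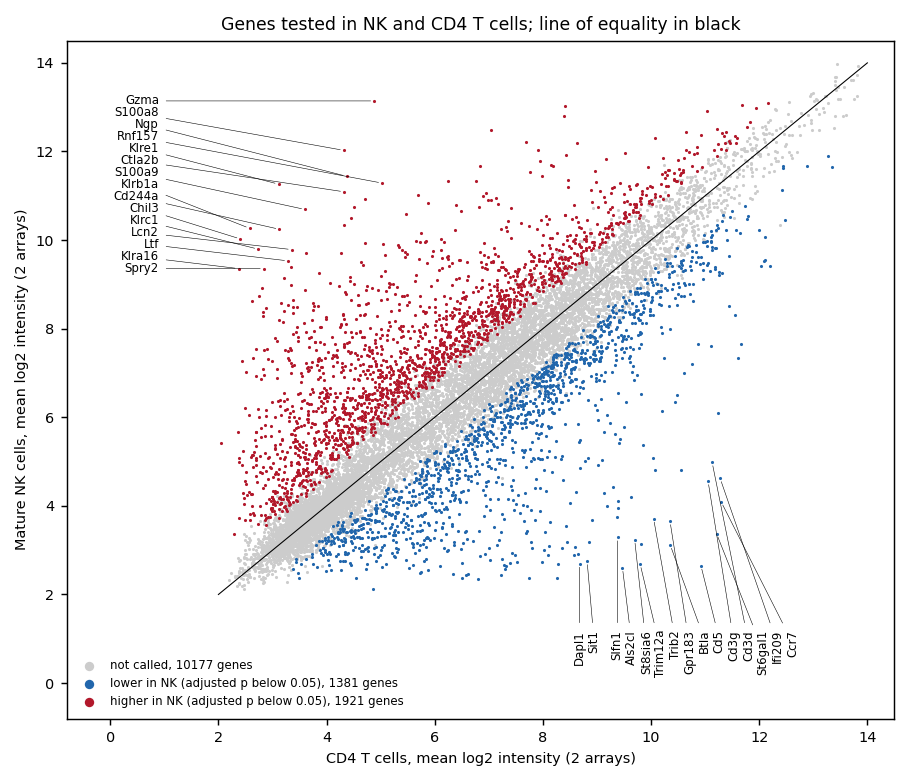
Each point is 1 of 13479 genes tested, with the mean log2 intensity of the 2 CD4 T arrays on the horizontal axis and that of the 2 NK arrays on the vertical axis. Red points (1921) were higher and blue points (1381) lower in NK cells at an adjusted p below 0.05, and the 15 largest non-overlapping differences in each direction are named.

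Marker genes matched the label of each cell type. All 11 measured NK markers were called higher in NK cells, and their summed linear intensity was 31510 and 32710 on the NK arrays against 1078 and 706.5 on the T arrays. Of 11 measured CD4 T markers 10 were called lower, with sums of 610.1 and 657.1 in NK cells against 11210 and 12580 in T cells. The exception was Zbtb7b, the factor that commits thymocytes to the CD4 fate, which measured 5.87 and 5.87 in NK cells and 6.26 and 6.42 in T cells. Rag2 itself lay near the array median in both, at 3.83 and 4.01 in NK cells and 3.57 and 3.72 in T cells, and could not check the genotype here. Ets1 measured 11.34 and 11.45 in NK cells and 10.94 and 11.03 in T cells and was not called, with a difference of 0.41 (SE 0.42) and an adjusted p of 0.554.

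Markers of other cells also differed between the samples. The T arrays carried more B lineage signal, with 8 of 15 markers called lower and 1 higher in NK cells, and more MHC class II, the antigen-presenting molecules of B cells and dendritic cells. Summed B lineage markers reached 1816 and 1727 on the NK arrays, 5965 and 6618 on the T arrays and 21910 to 36060 in pro-B cells. Ms4a1, which encodes CD20, measured 2.91 and 2.53 in NK cells and 6.35 and 6.66 in T cells, and the plasma cell joining chain Jchain 2.64 and 2.85 against 7.56 and 7.48. The early B cell factor Ebf1 was not called, at 2.40 and 2.43 in NK cells and 2.76 and 2.75 in T cells. H2-Aa, an MHC class II chain, was at 7.59 and 7.70 in NK cells and 11.09 and 10.63 in T cells, and H2-Eb1 at 4.96 and 5.08 against 9.15 and 8.41. Of 15 dendritic cell markers 8 were lower (53.3%, against 10.2% of all genes) and 2 higher (13.3%, against 14.3%) in NK cells. Of 11 erythroid and megakaryocyte markers, 3 were lower (27.3%), 1 was higher (9.09%) and 7 were not called. Their sums overlapped, at 1289 and 1372 in NK cells and 564.6 and 1570 in T cells. The largest difference among them was that of the erythroid enzyme gene Alas2, at 2.57 and 2.82 in NK cells and 7.33 and 9.24 in T cells. Bulk arrays cannot tell fewer cells of a type from less RNA per cell, and the part these signals play in the genes lower in NK cells was not tested.

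**Figure D2:**
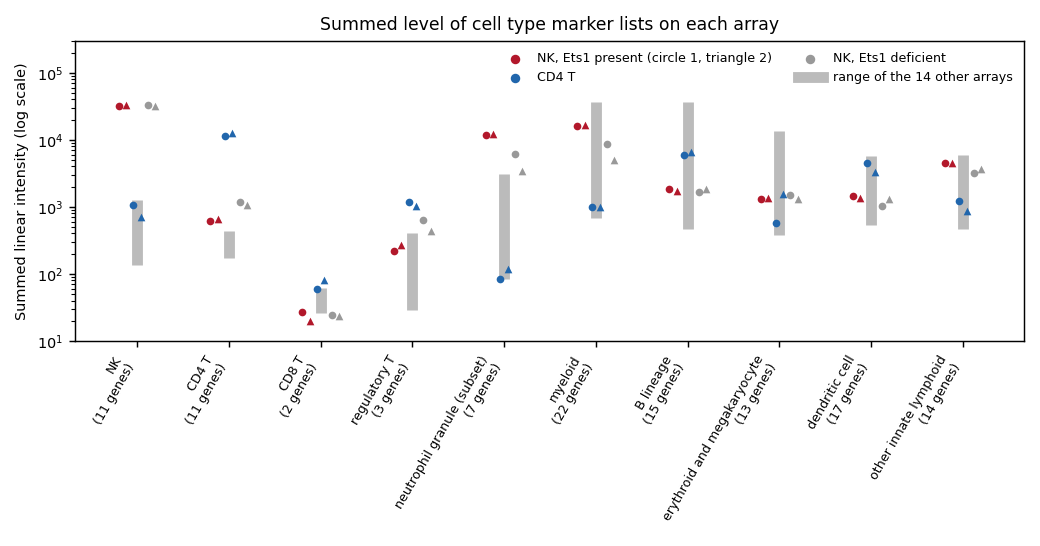
Summed linear intensity (log axis) of each list of cell type markers on the 2 NK arrays (red), the 2 CD4 T arrays (blue), the 2 Ets1-deficient NK arrays (grey points) and the range over the 14 other arrays (grey bars). The NK and CD4 T sums separate the 2 cell types, and the neutrophil granule subset lies at 11940 and 12290 on the NK arrays against 83.51 and 117.1 on the T arrays.

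Neutrophil granule genes were among the genes with the largest excess in NK samples. Of 21 myeloid markers tested, 13 were higher and 3 lower, with 11 and none in the 2-fold test. The 3 were Csf1r, Mrc1 and Adgre1, which mark macrophages. The call of Mrc1 ended under centring too, and that of Adgre1 without a filter, with each probe set tested on its own, without the intensity trend, after repeated quantile normalization, under centring and without any 1 of the 4 arrays. Genes of neutrophil granules and calprotectin made up 6 of the 15 largest NK excesses. S100a8 and S100a9 encode the subunits of calprotectin. S100a8 was at 12.06 and 11.99 on the NK arrays against 3.82 and 4.82 on the T arrays, a difference of 7.71 (SE 0.47), and S100a9 at 10.67 and 10.71 against 3.58 and 3.62, a difference of 7.09 (SE 0.45). Chil3, a chitinase-like protein, was at 10.04 and 10.01 in NK cells and 2.73 and 2.09 in T cells, and Ngp, a neutrophil granule protein, at 11.36 and 11.52 against 4.11 and 4.63. The iron-binding and siderophore-binding granule proteins Ltf and Lcn2 were higher by 6.24 (SE 0.32) and 6.43 (SE 0.35). Camp, the cathelicidin, was higher by 5.45 (SE 0.44) and Lyz1, a lysozyme, by 3.47 (SE 0.27). The groups did not overlap for any of these 8 genes, nor for 69.5% of all genes tested.

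The levels of 7 of these genes, a subset picked after their values were seen, were summed. The sum was 11940 and 12290 on the NK arrays and 6029 and 3450 on the Ets1-deficient NK arrays. In granulocyte-monocyte progenitors (GMP) it was 2518 to 3038. Primary granule genes had another order. Mpo, myeloperoxidase, was at 8.16 and 8.26 in NK cells and 3.63 and 4.35 in T cells, Prtn3, proteinase 3, at 7.36 and 7.31 against 4.07 and 4.14, and Ctsg, cathepsin G, at 6.35 and 6.30 against 3.32 and 3.95. All 3 were called higher in NK cells, while their highest array in GMP reached 13.90, 12.75 and 12.63. Other myeloid markers went several ways. The lysozyme gene Lyz2 and the elastase gene Elane were called higher by 1.77 and 1.28, neither past the 2-fold test, and the call of Elane ended without T array 1 (1.03) or NK array 2 (1.19). Csf3r, the granulocyte growth factor receptor, measured 4.63 and 4.31 in NK cells and 4.47 and 4.66 in T cells, without a call. The myeloid factors Cebpa and Spi1 and the monocyte receptor Cd14 differed by 0.04, 0.04 and 0.24 and were not called either. Itgam, the integrin CD11b chain found on neutrophils and mature NK cells, was too dim to test, at 3.06 and 3.25 in NK cells and 3.23 and 3.04 in T cells. The part of RNA from neutrophil lineage cells in the NK profile was not tested.

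Genes of the Y chromosome were present in the NK samples. Eif2s3y measured 8.73 and 8.51 in NK cells and 2.51 and 2.73 in T cells, and Uty and Kdm5d were called higher by 2.53 (SE 0.28) and 3.37 (SE 0.37). Xist, the RNA of the inactive X chromosome, was at 8.65 and 9.08 in NK cells and 9.87 and 10.73 in T cells, so that both kinds of sex-linked transcript were found on each NK array. The mean of a gene's several probe sets gave 2.98 for Eif2s3y and 1.10 for Kdm5d, still called. The call of Xist ended without T array 2 (-1.004) and without NK array 1 (-1.22), under centring and in the 2-fold test. The labels give no sex. Signal from the Y chromosome differed together with strain, Rag2 genotype and cell type, so that a share of sex cannot be told apart either.

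Genes of target killing were higher in NK cells. Of 22 tested, 14 were higher and 1 lower, the median difference was 1.33, and 9 passed the 2-fold test. With any 1 of the 4 arrays left out, 10 to 12 were higher and none lower. Gzma, a granzyme, had the largest NK excess of any gene tested, with 13.10 and 13.18 on the NK arrays, 5.18 and 4.59 on the T arrays and a difference of 8.26 (SE 0.29) at an adjusted p of 2.73e-13. Gzmb, the granzyme that cleaves caspases, measured 8.08 and 8.29 in NK cells and 4.04 and 3.42 in T cells, and Gzmk 7.94 and 7.92 against 5.02 and 3.88. Prf1, which encodes the pore protein perforin, was at 10.54 and 10.94 against 6.85 and 6.80, a difference of 3.92 (SE 0.30) that was 2.03 with the mean of its probe sets. For none of these 4 did the groups overlap, nor for 69.5% of all genes tested.

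Further killing genes were higher too. Nkg7, a granule membrane protein, was at 12.16 and 12.27 in NK cells and 7.93 and 7.44 in T cells, a difference of 4.53 (SE 0.33). Ctsw, a cathepsin of cytotoxic lymphocytes, was higher by 2.67 (SE 0.32). Fasl, the death ligand of Fas, was at 9.40 and 9.43 against 6.91 and 5.63, and its difference of 3.14 was 1.91 with the mean of its probe sets. Serpinb9, an inhibitor of granzyme B that protects the killer, was higher by 3.91 (SE 0.52) and Serpinb6b, another serpin, by 4.09 (SE 0.41). The syntaxins Stx11 and Stx7, of membrane fusion, were called higher by 1.54 and 1.42, but neither passed the 2-fold test, and the call of Stx7 ended without T array 2 (1.06) or NK array 1 (1.26). Srgn, the granule proteoglycan serglycin, measured 11.95 and 11.95 in NK cells and 12.05 and 11.90 in T cells, and Rab27a, which docks granules, differed by 0.31 without a call. Lamp1, a membrane protein of lysosomes and granules, was the 1 member called lower, with a difference of -0.68. That call ended with no filter, under centring, with the 2-fold threshold and without any 1 of the 4 arrays.

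The promoters of 2 killing genes are printed because they hold matches to T-box and RUNX letters. Of the factors described further on, both T-box genes were higher in NK cells, Runx3 was called higher below the 2-fold test and Runx1 was not called. Sequences are the 250 bases before the RefSeq start site in GRCm38.p6, the C57BL/6J reference and not the 129 strain, with matches in capitals.
Nkg7, chr7:43436888-43437137, plus strand: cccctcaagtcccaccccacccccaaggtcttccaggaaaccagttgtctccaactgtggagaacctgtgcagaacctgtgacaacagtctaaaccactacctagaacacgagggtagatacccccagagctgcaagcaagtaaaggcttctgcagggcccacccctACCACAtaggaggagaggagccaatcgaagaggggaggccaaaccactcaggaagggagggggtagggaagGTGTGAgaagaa
Gzmb, chr14:56262335-56262584, minus strand: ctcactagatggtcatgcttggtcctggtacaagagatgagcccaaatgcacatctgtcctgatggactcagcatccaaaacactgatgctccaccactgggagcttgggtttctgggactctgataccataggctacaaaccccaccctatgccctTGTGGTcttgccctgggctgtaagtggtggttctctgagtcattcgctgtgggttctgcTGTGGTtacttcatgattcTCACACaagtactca
The T-box letters searched were GTGTGA and the RUNX letters TGTGGT, each on both strands. The 2 motifs share the letters TGTG. Each promoter held 1 T-box match, which began 12 bases before the start site in Nkg7 and 15 in Gzmb. Nkg7 held 1 RUNX match and Gzmb 2. Over the 24 windows of 20 killing genes, 33.3% held the T-box letters and 37.5% the RUNX letters, against 12.3% and 14.0% of all 32851 windows. A match is a run of letters and not a measured binding site.

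Activating receptors and their adaptors were the group with the highest median difference, 4.97. Of 14 tested, 12 were higher, none was lower, and the same counts held in the 2-fold test and with any 1 array left out. Klre1, a lectin-like receptor gene of the NK gene complex, was at 11.26 and 11.26 on the NK arrays and 3.03 and 3.20 on the T arrays, a difference of 8.15 (SE 0.23). Klrb1a, of the NKR-P1 family, was at 10.19 and 10.34 against 2.55 and 2.61. The SLAM family receptor Cd244a measured 10.23 and 10.26 in NK cells and 3.09 and 3.16 in T cells. Ncr1, which encodes NKp46 and marks NK cells across mammals, was at 9.67 and 9.75 against 3.39 and 3.83, and Klrk1, the stress ligand receptor NKG2D, at 9.08 and 9.20 against 3.12 and 3.29. All 5 lay at or below the array median on the T arrays, apart from T array 2 for Ncr1, which was just above it.

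Fc receptor and adaptor genes belonged to the same list. Fcgr3, the low-affinity IgG receptor that triggers killing of antibody-coated cells, was higher by 6.01 (SE 0.30). Its signalling partner Fcer1g measured 9.63 and 9.60 in NK cells and 5.52 and 5.38 in T cells. Tyrobp, the adaptor DAP12, was at 12.49 and 12.50 against 7.46 and 6.60, a difference of 5.46 (SE 0.34). The adaptor Hcst, known as DAP10, was not called, at 8.95 and 8.94 against 9.48 and 9.66. Crtam, a receptor for nectin-like ligands, was higher by 4.49 (SE 0.42), with T array 1 above T array 2, at 5.37 and 3.30. Cd160 and Slamf7 were higher by 2.96 (SE 0.30) and 4.16 (SE 0.25). Slamf6, the other member not called, overlapped between the groups, while 2 of its 3 probe sets were called lower in NK cells. Klrb1b, Klrc2, Cd226 and Klra8 were too dim to test.

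**Figure D3:**
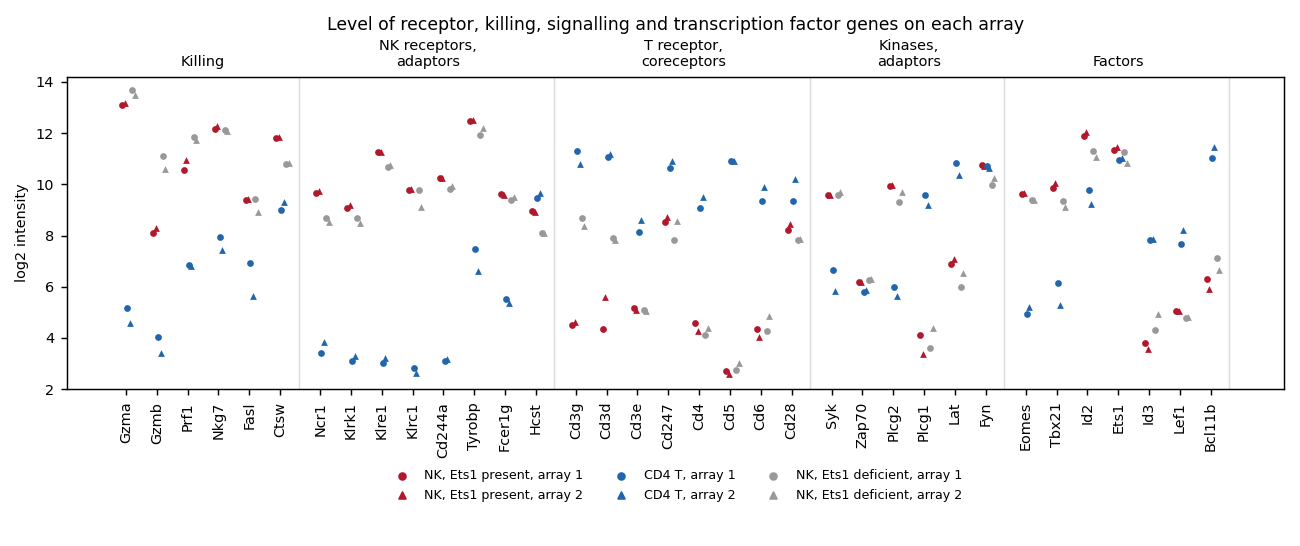
Log2 intensity of selected genes on each of the 2 Ets1-present NK arrays (red), 2 CD4 T arrays (blue) and 2 Ets1-deficient NK arrays (grey), by role. Killing genes and NK receptors and adaptors other than Hcst were high on the NK arrays, CD3 chains and coreceptors on the T arrays, and Fyn and Zap70 lay close together.

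The list of inhibitory receptors, which also holds Cd200r4, an activating relative of Cd200r1, differed in both directions. Of 15 tested, 7 were higher and 5 lower in NK cells, and the median difference was 0.54. Of these, 7 and 3 passed the 2-fold test. Among the receptors for MHC class I, Klrc1, which encodes NKG2A, was at 9.77 and 9.82 in NK cells and 2.82 and 2.65 in T cells, a difference of 7.06 (SE 0.23) that was 4.14 with the mean of its probe sets. Its partner Klrd1, CD94, was at 13.04 and 13.02 against 8.90 and 7.93, so that CD94 was well above the array median on the T arrays and NKG2A was not. Ly49 family genes were higher as well, with differences of 5.25 (SE 0.29) for Klra17, 4.28 (SE 0.30) for Klra7 (2.37 with the mean of its probe sets) and 3.26 (SE 0.29) for Klra5. Klra16 of the same family, not on the list of inhibitory receptors, was at 9.47 and 9.24 against 2.28 and 2.47. Its difference of 6.98, among the 15 largest, was 3.66 with the mean of its probe sets. Ly49 genes are near-identical copies whose number differs between strains, so that probes may share signal and single members are uncertain.

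The checkpoint receptor Btla measured 3.17 and 3.07 in NK cells and 10.26 and 10.44 in T cells, a difference of -7.23 (SE 0.57). All 4 NK arrays, of both Ets1 genotypes, lay below all 16 arrays of C57bl/6 mice for Btla. Pdcd1, which encodes PD-1, was at 2.70 and 2.85 against 7.24 and 6.81, a difference of -4.25 (SE 0.21). Cd96, a nectin-binding receptor of both lineages, was lower with a difference of -1.76 (SE 0.32) in NK cells but was not past the 2-fold test. Cd200r1, the receptor for CD200, was lower with a difference of -2.39 (SE 0.29) (-1.55 with the mean of its probe sets), whereas its relative Cd200r4 was higher by 5.44 (SE 0.24). Of 2 receptors with immunoglobulin-like domains, Lair1 was higher by 2.32 (SE 0.29) (0.84 with the mean of its probe sets). Cd300a was lower with a difference of -1.32 (SE 0.32) (-0.67 with that mean), a call that ended under centring and in the 2-fold test. Lectin-like Klrg1, a marker of late maturation, and the checkpoint receptor Lag3 were not called. Klrg1 was at 8.41 and 8.12 against 8.05 and 7.40.

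Genes of the T receptor complex and its coreceptors were lower in NK cells. Of 18 tested, 14 were lower, none was higher, and the median difference was -2.33. In the 2-fold test 11 were lower, and 11 to 13 with any 1 array left out. Cd5, a damper of T receptor signals, had the largest T excess of any gene tested, at 2.70 and 2.60 in NK cells and 10.92 and 10.93 in T cells, with a difference of -8.27 (SE 0.26) and an adjusted p of 3.75e-14. The CD3 chain genes Cd3g and Cd3d measured 4.51 and 4.62 for Cd3g and 4.37 and 5.61 for Cd3d on the NK arrays against 11.32 and 10.79 for Cd3g and 11.06 and 11.20 for Cd3d on the T arrays. Cd3e was lower with a difference of -3.23 (SE 0.27). Cd247, the zeta chain that NK receptors also use, remained at 8.51 and 8.74 in NK cells against 10.65 and 10.90, and its difference of -2.15 (SE 0.36) was -1.14 with the mean of its probe sets. Zeta was thus the CD3-associated chain with the smallest difference.

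Coreceptors and costimulators gave a graded picture. Cd4 measured 4.59 and 4.27 in NK cells and 9.06 and 9.53 in T cells, and Cd6, a scavenger-type receptor of T cells, 4.34 and 4.06 against 9.36 and 9.89. Ctla4, the inhibitory counterpart of CD28, was lower with a difference of -5.02 (SE 0.27) and Icos, a costimulatory receptor, with one of -1.94 (SE 0.30), with Icos still at 8.86 and 8.69 on the NK arrays. Trat1, an adaptor of the receptor complex, was lower with a difference of -3.71 (SE 0.26). Cd8a was low in both, at 4.13 and 3.61 in NK cells and 4.43 and 4.44 in T cells, and was not called, while Cd8b1 was at 3.24 and 2.92 against 5.27 and 5.91. Cd28, Cd2 and Thy1 were called lower with differences of -1.46, -1.36 and -1.16, but all 3 calls ended in the 2-fold test, and those of Cd2 and Thy1 under centring. The call of Cd28 ended without T array 2 (-1.03), that of Cd2 without T array 1 (-1.22) and that of Thy1 without T array 2 (-1.13), and each of the 3 without at least 1 NK array. Cd27 and Ptprcap were not called.

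Antigen receptor segments were more often lower than higher in NK cells. Of 30 V, D, J or constant segments measured, 19 were tested, 10 were lower and 1 was higher in NK cells. The V segments Trav6-3 and Trav12n-2 of the T receptor alpha chain measured 2.30 and 2.41 for Trav6-3 and 3.59 and 3.30 for Trav12n-2 in NK cells against 6.65 and 6.94 for Trav6-3 and 7.44 and 7.96 for Trav12n-2 in T cells, and Trbv13-2 of the beta chain 3.71 and 3.47 against 6.35 and 6.31. Trbv1 and Trav9d-3, by contrast, read well above the array median in NK cells, at 10.48 and 10.44 for Trbv1 and 7.73 and 7.50 for Trav9d-3, against 12.39 and 12.57 for Trbv1 and 11.21 and 11.02 for Trav9d-3. The difference of Trbv1, -2.02 (SE 0.36), was called but did not pass the 2-fold test. The only higher segment was Trgv1 of the gamma chain, at 6.65 and 6.15 against 5.19 and 4.60, again not past the 2-fold test. Immunoglobulin segments lower in NK cells included Igkv8-30, at 3.07 and 2.80 against 7.38 and 7.47, beside the B lineage signal given above. Segments resemble each other, and probes may read several of them.

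The promoter of Cd3d is printed because Lef1, described next, was lower together with the CD3 genes, and the letters of TCF and LEF factors occur in it.
Cd3d, chr9:44981536-44981785, plus strand: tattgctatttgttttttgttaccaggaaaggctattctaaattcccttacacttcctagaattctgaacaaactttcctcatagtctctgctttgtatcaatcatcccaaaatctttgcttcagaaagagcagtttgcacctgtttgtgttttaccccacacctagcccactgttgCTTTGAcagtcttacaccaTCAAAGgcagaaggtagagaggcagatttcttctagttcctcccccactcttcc
It held 2 runs of CTTTGA, searched on both strands, which began 73 and 54 bases before the start site. Of 9 windows of T receptor genes 2 held the letters (22.2%), against 13.8% of all windows. The windows of interferon-stimulated genes held them at a higher share, 24.1%. Only 9 of the 18 T receptor genes had a window.

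Transcription factors of T cells were more often lower in NK cells and those of NK cells more often higher. Of 19 T lineage factors tested, 9 were lower and 1 higher, with 5 lower in the 2-fold test and 5 to 7 with any 1 array left out. Bcl11b, which commits cells to the T lineage, was at 6.29 and 5.91 in NK cells and 11.02 and 11.44 in T cells, a difference of -5.13 (SE 0.42). Lef1, a partner of Wnt signals, was at 5.06 and 5.06 against 7.65 and 8.23. Id3, an inhibitor of E proteins, was lower with a difference of -4.17 (SE 0.35), and Themis, needed for T cell selection, with one of -3.16 (SE 0.36). Foxp3, the factor of regulatory T cells, was at 3.17 and 3.15 against 6.57 and 6.47, and Il2ra, which these cells also carry, at 2.88 and 3.21 against 6.35 and 5.99. Gata3, used by both lineages, was not called, at 6.16 and 6.22 against 6.61 and 6.66. Satb1 and Runx1 were not called either. Myb was the 1 member higher, by 1.23, below the 2-fold test. Tcf7 had no probe set that carried its symbol alone, and was not tested.

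Of 26 NK factors tested, 13 were higher and 1 lower, and the median difference was 1.24. In the 2-fold test 10 were higher, and 13 with any 1 array left out. Eomes and Tbx21, the T-box factors that drive NK maturation, were at 9.63 and 9.68 for Eomes and 9.86 and 10.04 for Tbx21 on the NK arrays against 4.94 and 5.21 for Eomes and 6.14 and 5.30 for Tbx21 on the T arrays. Their differences were 4.58 (SE 0.26) and 4.23 (SE 0.28). Id2, the E protein inhibitor that innate lymphocytes require, was at 11.90 and 12.03 against 9.79 and 9.23, a difference of 2.46 (SE 0.45) that was 1.12 with the mean of its probe sets. Prdm1, Irf8 and Ikzf3 were higher by 2.30 (SE 0.27), 2.56 (SE 0.37) and 2.73 (SE 0.30). Hhex, a homeobox factor, was at 8.25 and 8.32 against 4.95 and 4.91, and Bhlhe40 was higher by 3.46 (SE 0.49). Runx3 was higher by 1.79 (SE 0.38) (0.77 with the mean of its probe sets) and Nfil3, which starts the NK lineage, by 1.39 (SE 0.30), and neither passed the 2-fold test. Stat4, Gfi1 and Smad3 were not called. Maf was the 1 member lower, with a difference of -1.41, a call that ended in the 2-fold test and without any 1 of the 4 arrays.

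Id2 and Id3 thus went in opposite directions. Id2 was higher on both NK arrays than on both T arrays, and Id3 was lower. Of the E proteins they bind, Tcf4 was at 8.16 and 7.87 in NK cells and 5.42 and 5.24 in T cells, a difference of 2.68 (SE 0.28), whereas Tcf3 and Tcf12 differed by 0.16 and 0.57 and were not called.

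Of 43 signal transduction genes tested, 15 were lower in NK cells (34.9%, against 10.2% of all genes) and 8 higher (18.6%, near the 14.3% of all genes). In the 2-fold test 6 were lower and 2 higher, and with any 1 array left out 10 to 11 and 4. Syk, the kinase that binds adaptor motifs, was at 9.58 and 9.59 in NK cells and 6.65 and 5.83 in T cells, a difference of 3.34 (SE 0.27). Zap70, its relative behind the T receptor, was not called, at 6.20 and 6.18 against 5.78 and 5.88. Plcg2 was at 9.94 and 9.98 against 5.98 and 5.65 and Plcg1, the phospholipase isoform of T receptor signalling, at 4.11 and 3.38 against 9.57 and 9.18. Their differences were 4.15 (SE 0.24) and -5.63 (SE 0.37), and the second was -1.91 with the mean of its probe sets. On all 4 NK arrays, of both Ets1 genotypes, Plcg1 lay below all 16 arrays of C57bl/6 mice.

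Lat, the scaffold that T receptor signals assemble on, was at 6.89 and 7.09 against 10.83 and 10.37, a difference of -3.61 (SE 0.30). Its relative Lat2 was higher by 1.35 (SE 0.31), below the 2-fold test. Sit1, a transmembrane adaptor that dampens T receptor signals, was at 2.76 and 2.75 against 8.74 and 8.89. Trib2, a pseudokinase, was at 3.84 and 3.59 against 10.07 and 10.03, and its difference of -6.33 was -2.83 with the mean of its probe sets. Dgka, which clears diacylglycerol, was lower with a difference of -2.78 (SE 0.36), and Ubash3a, a phosphatase that limits T receptor signals, with one of -2.80 (SE 0.48). Prkcq and Rasgrp1, which read diacylglycerol in T cells, were lower with differences of -1.83 (SE 0.37) and -1.68 (SE 0.25), below the 2-fold test. Fyn and Vav1 were not called and differed by 0.06 and -0.01. Lck had no probe set that carried its symbol alone, and was not tested.

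Cytokine receptors differed in both directions. Of 39 receptor, JAK and STAT genes tested, 9 were higher (23.1%, against 14.3% of all genes) and 15 lower (38.5%, against 10.2%) in NK cells. The median was -0.46. The counts were 5 and 9 in the 2-fold test, and 5 to 8 and 13 with any 1 array left out. Il2rb, the chain shared by the receptors for IL-2 and IL-15, was at 9.50 and 9.60 in NK cells and 6.60 and 6.29 in T cells, a difference of 3.10 (SE 0.26). Both chains of the IL-18 receptor were higher, Il18r1 by 3.50 (SE 0.38) and Il18rap by 5.33 (SE 0.32), with Il18rap at 11.04 and 11.00 against 5.91 and 5.46. Il7r, the survival receptor of resting T cells, was at 7.52 and 7.79 against 11.56 and 11.76, a difference of -4.00 (SE 0.43). Il21r was lower with a difference of -2.34 (SE 0.36).

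The IL-6 and IL-4 receptor chains were on the T side. Il6ra was at 2.93 and 2.53 against 7.42 and 8.53 and its signalling chain Il6st at 5.53 and 5.71 against 9.43 and 9.22. Il4ra was at 4.71 and 5.51 against 8.31 and 7.84. With the mean of their probe sets the differences were -2.66 for Il6ra, -1.89 for Il6st and -1.38 for Il4ra, against -5.25, -3.71 and -2.97, and that of Il2ra was -1.85 against -3.12. Cish, a feedback inhibitor that STAT5 induces, was lower with a difference of -2.78 (SE 0.27). Ifngr2, the signalling chain of the interferon gamma receptor, was at 3.07 and 3.29 against 7.03 and 8.53, and its difference of -4.60 was -2.81 with the mean of its probe sets. Of the kinases and STAT genes, Jak1, Jak3, Tyk2, Stat4, Stat5a and Stat6 were not called, while Stat5b was lower with a difference of -1.05, a call that ended under centring, in the 2-fold test and without T array 1 (-0.93) or either NK array. Il2rg had no probe set that carried its symbol alone, and was not tested.

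Among 20 cytokines and chemokines tested, 6 were higher (30%, against 14.3% of all genes) and 5 lower (25%, against 10.2%). In the 2-fold test 4 were higher and 1 lower, and with any 1 array left out 6 to 7 were higher and 2 to 3 lower. Xcl1, a chemoattractant for cross-presenting dendritic cells, was at 8.61 and 8.85 in NK cells and 3.08 and 2.43 in T cells. Ccl5 was at 12.78 and 12.80 against 8.59 and 8.20, Ccl3 at 8.34 and 8.07 against 3.19 and 3.04, and Ccl4 was higher by 2.83 (SE 0.35). Ifng, the signature cytokine of NK cells, was at 6.24 and 5.99 against 5.76 and 5.66 and was not called, and neither was Tnf. Lta, lymphotoxin alpha, was lower with a difference of -2.60 (SE 0.29). Il2 lay near or below the array median in both.

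Migration receptors differed in both directions. Of 17 tested, 5 were higher (29.4%, against 14.3% of all genes) and 7 lower (41.2%, against 10.2%) in NK cells. The counts were 3 and 7 in the 2-fold test and 4 and 7 with any 1 array left out. Ccr7, which guides naive T cells into lymph nodes, was at 4.12 and 4.06 in NK cells and 11.11 and 11.48 in T cells, a difference of -7.20 (SE 0.37). Gpr183, an oxysterol receptor, was at 3.45 and 3.86 against 9.82 and 10.88. S1pr1, the sphingosine phosphate receptor for T cell egress, was at 4.35 and 4.22 against 9.30 and 8.95, while S1pr5, the one NK cells use to leave the marrow, was at 8.50 and 8.49 against 3.17 and 3.58. Their differences were -4.84 (SE 0.34) and 5.12 (SE 0.39), opposite in sign. Cxcr5, Cxcr6 and Ccr6 were lower with differences of -5.69 (SE 0.28), -3.99 (SE 0.27) and -3.59 (SE 0.27). Cxcr3, which both effector T cells and NK cells carry, was not called, at 9.87 and 9.67 against 9.54 and 9.43. Cxcr4, the marrow retention receptor, was called higher by 2.70, a call that ended in the 2-fold test and without any 1 of the 4 arrays.

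Integrins and adhesion genes were mixed. Of 25 tested, 6 were higher (24%, against 14.3% of all genes) and 8 lower (32%, against 10.2%). Only 1 and 2 passed the 2-fold test. The higher count fell to 3 without T array 2 or without NK array 2, and to 4 without NK array 1. Itgax, the CD11c chain that mouse NK cells also carry, was at 8.91 and 8.92 against 4.64 and 5.06, a difference of 4.07 (SE 0.28). Itgb7, part of a gut homing integrin, was lower with a difference of -2.05 (SE 0.32). Itgb3 was at 5.04 and 4.79 against 8.91 and 9.13, with a difference of -4.10 that was -2.59 with the mean of its probe sets. Itga2, the CD49b chain that marks mouse NK cells, was higher by 1.34 (SE 0.27), with both NK arrays at 4.63 and 4.58, and was not past the 2-fold test. Itgb2, Cd44, Cd47 and Cd48 were not called.

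Cell cycle genes were higher in NK cells. Of 39 tested, 34 were higher, none was lower, and the median difference was 3.17. In the 2-fold test 24 were higher, and 33 to 35 with any 1 array left out. Mki67, the proliferation marker Ki-67, was at 12.07 and 12.01 in NK cells and 8.00 and 7.80 in T cells, a difference of 4.14 (SE 0.44). The mitotic kinase gene Cdk1 was at 8.83 and 8.66 against 5.57 and 5.88, and its cyclin Ccnb2 at 9.99 and 9.98 against 5.86 and 5.44. Aurkb, of the chromosomal passenger complex, was at 8.58 and 8.60 against 3.71 and 3.79, and its partner Birc5 was higher by 4.72 (SE 0.57). Ccne2, the cyclin of S phase entry, was at 7.28 and 7.27 against 2.40 and 2.47.

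Genes of DNA synthesis were mostly higher as well. Rrm2, the regulated subunit of ribonucleotide reductase, was higher by 3.87 (SE 0.47), Tk1, thymidine kinase, by 3.26 (SE 0.34) and Cdc6, a licensing factor, by 4.12 (SE 0.63). The helicase subunits Mcm3 and Mcm7 were higher by 1.70 (SE 0.34) and 1.28 (SE 0.21), below the 2-fold test, and both were readable on the T arrays at 7.62 and 7.09 for Mcm3 and 10.77 and 10.64 for Mcm7. The 5 members not called were Pcna, Mcm6, Tyms, E2f1 and Cenpa. Pcna, the sliding clamp of replication, was at 10.90 and 10.86 against 10.94 and 11.22. The level of Mki67 on the NK arrays lay within the range of the 14 progenitor arrays, which ran from 8.01 to 12.51, and the T arrays were just below that range. Of 13 genes of CDK inhibitors and D-type cyclins, 3 were higher (23.1%, against 14.3% of all genes) and 1 lower (7.69%, against 10.2%). None passed the 2-fold test. Cdk6, a kinase that pairs with D-type cyclins, was higher by 1.43 (SE 0.25), and Cdkn2c, an inhibitor of it, by 1.91 (SE 0.33), both below the 2-fold test.

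The promoters of Ccnb2 and Cdk1 are printed because cell cycle genes moved together and both carry CCAAT boxes and the core of the cell cycle homology region, searched as TTTGAA.
Ccnb2, chr9:70421555-70421804, minus strand: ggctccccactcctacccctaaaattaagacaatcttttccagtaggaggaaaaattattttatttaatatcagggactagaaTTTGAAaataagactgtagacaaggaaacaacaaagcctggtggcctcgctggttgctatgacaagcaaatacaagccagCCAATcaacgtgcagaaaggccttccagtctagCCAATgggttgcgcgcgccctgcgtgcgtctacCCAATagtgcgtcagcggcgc
Cdk1, chr10:69352913-69353162, minus strand: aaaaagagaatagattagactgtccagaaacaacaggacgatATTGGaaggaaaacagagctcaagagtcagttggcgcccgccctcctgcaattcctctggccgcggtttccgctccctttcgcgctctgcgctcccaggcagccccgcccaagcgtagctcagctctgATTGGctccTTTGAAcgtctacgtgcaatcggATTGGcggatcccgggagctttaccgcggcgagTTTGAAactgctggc
Capitals mark both motifs on either strand. CCAAT matches began 87, 54 and 21 bases before the start site in Ccnb2 and 208, 80 and 48 in Cdk1. The TTTGAA run began 167 bases before the start in Ccnb2, and 71 and 15 in Cdk1. Over 32 windows of 31 cell cycle genes, 75.0% held CCAAT and 28.1% TTTGAA. Of all 32851 windows, 33.8% held CCAAT and 16% (5252 windows) held TTTGAA. The letters TTTGA are also part of the TCF motif above, so that the 2 searches share sites.

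Interferon-stimulated genes were lower in NK cells. Of 29 tested, 18 were lower, none was higher, and the median difference was -1.61. In the 2-fold test 9 were lower, and 15 to 16 with any 1 array left out. Ifit1, which binds foreign RNA, was at 4.97 and 5.24 in NK cells and 8.14 and 8.32 in T cells, a difference of -3.12 (SE 0.35). Ifit3 was lower with a difference of -2.96 (SE 0.32). Rsad2, the antiviral enzyme viperin, was at 3.72 and 4.21 against 8.48 and 10.29, and its difference of -5.43 was -3.32 with the mean of its probe sets. Isg20, an exonuclease, was at 5.53 and 5.49 against 9.01 and 9.83, and Usp18, which removes ISG15 and dampens the receptor, at 4.06 and 4.51 against 7.93 and 7.39. Oasl2, Bst2 and Igtp were lower with differences of -2.75 (SE 0.39), -2.48 (SE 0.38) and -2.36 (SE 0.31). The direction of Xaf1 was not settled, since its 2 probe sets were called at -2.30 and 5.82 and their mean gave 1.76.

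Other genes of the interferon response were not called. They included the factors Irf7, Irf9 and Stat2, which differed by -0.69, -0.88 and -0.82. The receptor chain gene Ifnar1 was not called either. Ifi209, of the interferon-inducible family of DNA sensors, was at 4.66 and 4.59 in NK cells and 11.23 and 11.32 in T cells, a difference of -6.65 (SE 0.28). Slfn1, of the Schlafen family, was at 3.07 and 3.52 against 9.44 and 9.32, and its difference of -6.09 was -3.07 with the mean of its probe sets.

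Promoters of Ifit1 and Rsad2 are printed for the interferon-stimulated response element, searched as GAAA, any 2 bases, then GAAA, on both strands, with the whole match in capitals.
Ifit1, chr19:34640639-34640888, plus strand: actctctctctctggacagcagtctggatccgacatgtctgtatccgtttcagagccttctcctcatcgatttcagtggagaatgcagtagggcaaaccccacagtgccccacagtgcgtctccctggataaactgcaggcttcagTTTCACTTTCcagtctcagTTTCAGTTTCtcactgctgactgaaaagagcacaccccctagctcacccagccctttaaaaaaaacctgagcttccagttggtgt
Rsad2, chr12:26456453-26456702, minus strand: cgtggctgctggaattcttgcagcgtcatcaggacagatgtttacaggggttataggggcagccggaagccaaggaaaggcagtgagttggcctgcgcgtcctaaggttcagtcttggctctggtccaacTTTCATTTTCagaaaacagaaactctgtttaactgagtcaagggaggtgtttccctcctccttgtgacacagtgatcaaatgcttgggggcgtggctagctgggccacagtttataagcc
Ifit1 held 2 matches, which began 104 and 85 bases before the start site, and Rsad2 held 1, at 120 bases. Of 29 windows of 23 interferon-stimulated genes 41.4% held a match, against 2.98% of all windows and 3.12% of the windows of cell cycle genes.

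**Figure D4:**
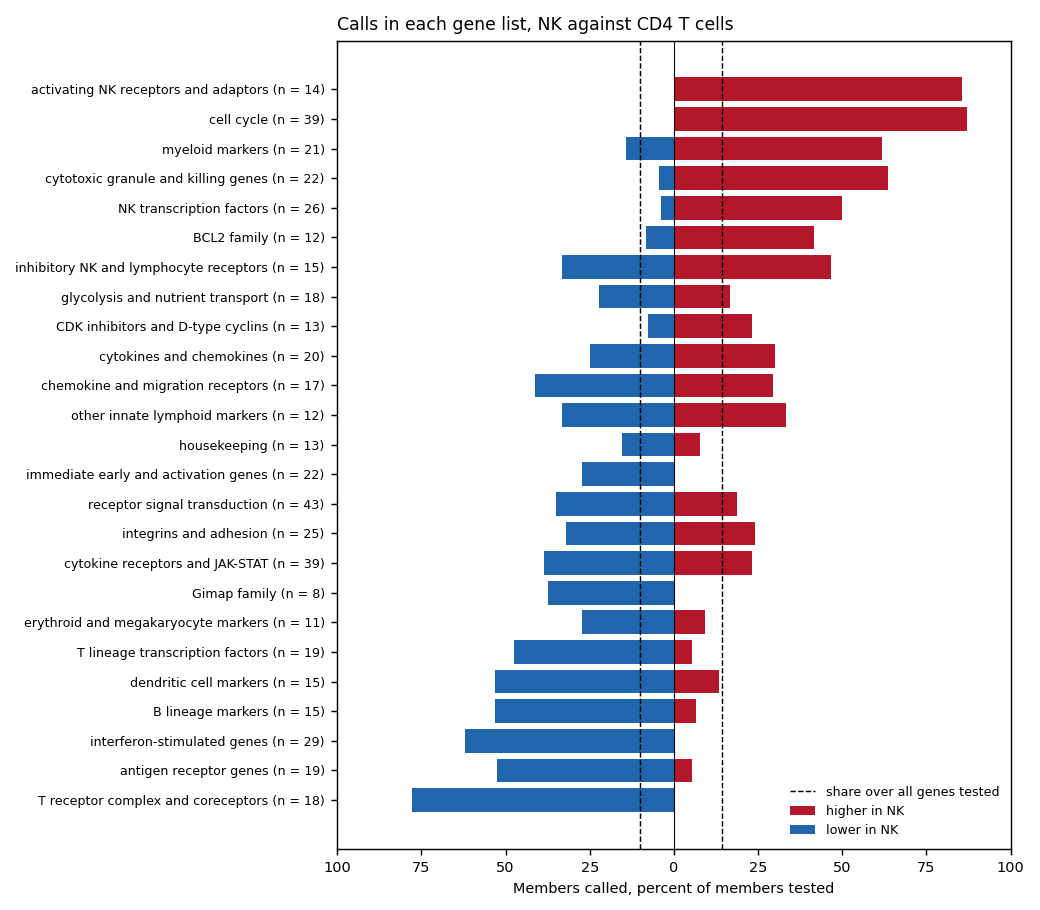
Percent of the tested members of each gene list called higher (red, to the right) or lower (blue, to the left) in NK cells, with the number tested in parentheses and the shares over all genes tested, 14.3% and 10.2%, as dashed lines. Lists are ordered by their median difference, from activating NK receptors at the top to the T receptor complex at the bottom.

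Immediate early genes respond within minutes to stimulation. Of 22 tested, 6 were lower in NK cells and none was higher, the same counts as with any 1 array left out, and 4 were lower in the 2-fold test. Fos was at 6.13 and 5.75 in NK cells and 10.01 and 8.02 in T cells, with T array 1 the higher and no overlap. Jun was at 2.99 and 3.10 against 7.61 and 6.40, with a difference of -3.96 that was -2.49 with the mean of its probe sets. Zfp36 was lower with a difference of -2.44 (SE 0.39) and Cd83, an activation marker, with one of -5.02 (SE 0.27). The other 16, Junb among them, were not called.

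The remaining genes among the 15 largest differences had other roles. On the NK side, Ctla2b, related to cysteine protease inhibitors, was at 11.05 and 11.13 in NK cells and 5.27 and 3.37 in T cells, with T array 1 the higher. Spry2, an inhibitor of receptor tyrosine kinase signals, was at 9.37 and 9.34 against 2.49 and 3.19, and Rnf157, a ubiquitin ligase, at 11.21 and 11.36 against 5.38 and 4.67. With the mean of their probe sets these 2 differences were 3.47 and 2.87, against 6.51 and 6.26. On the T side were the sialyltransferases St6gal1, at 3.71 and 3.04 against 11.15 and 11.27, and St8sia6, at 3.14 and 3.34 against 9.15 and 10.24. Dapl1 was at 2.63 and 2.76 against 8.05 and 9.30, Als2cl at 2.66 and 2.55 against 9.59 and 9.35 and Trim12a, of the TRIM family, at 2.79 and 2.58 against 9.83 and 9.77. The means of their probe sets gave -3.86 for St6gal1, -4.29 for Als2cl and -4.17 for Trim12a.

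The other 16 arrays of the series, 14 progenitor (pro-B cells included) and 2 Ets1-deficient NK arrays, place these differences. Of the 1381 genes lower in NK cells, 531 (38.5%) were higher on both T arrays than on each of the 18 other arrays, against 7.06% of all genes tested. In 176 (12.7%) all 4 NK arrays, of both Ets1 genotypes, lay below all 16 arrays of C57bl/6 mice, against 2.75% of all genes. In 20 genes both held. Trim12a was one of them, with all 4 NK arrays at most at 2.94, the progenitor arrays from 5.80 to 7.91 and the T arrays above them. Of the other genes named in the text, Btla, Als2cl, Plcg1, Ifngr2, Isg20, Xaf1 and Slc1a5 were also among these 20. Cd5 was only of the first kind, and no progenitor or NK array exceeded 4.01. Of the 1921 genes higher in NK cells, 547 (28.5%) lay above all 16 C57bl/6 arrays on all 4 NK arrays, against 6.01%, and in 375 (19.5%) the T arrays lay below all 18 others, against 4.64%. These patterns were looked up after the calls were known, and because the calls use the same arrays they describe the genes without testing them. Where all 4 NK arrays stand apart from all C57bl/6 arrays, strain, Rag2 genotype and cell type cannot be told apart.

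**Figure D5:**
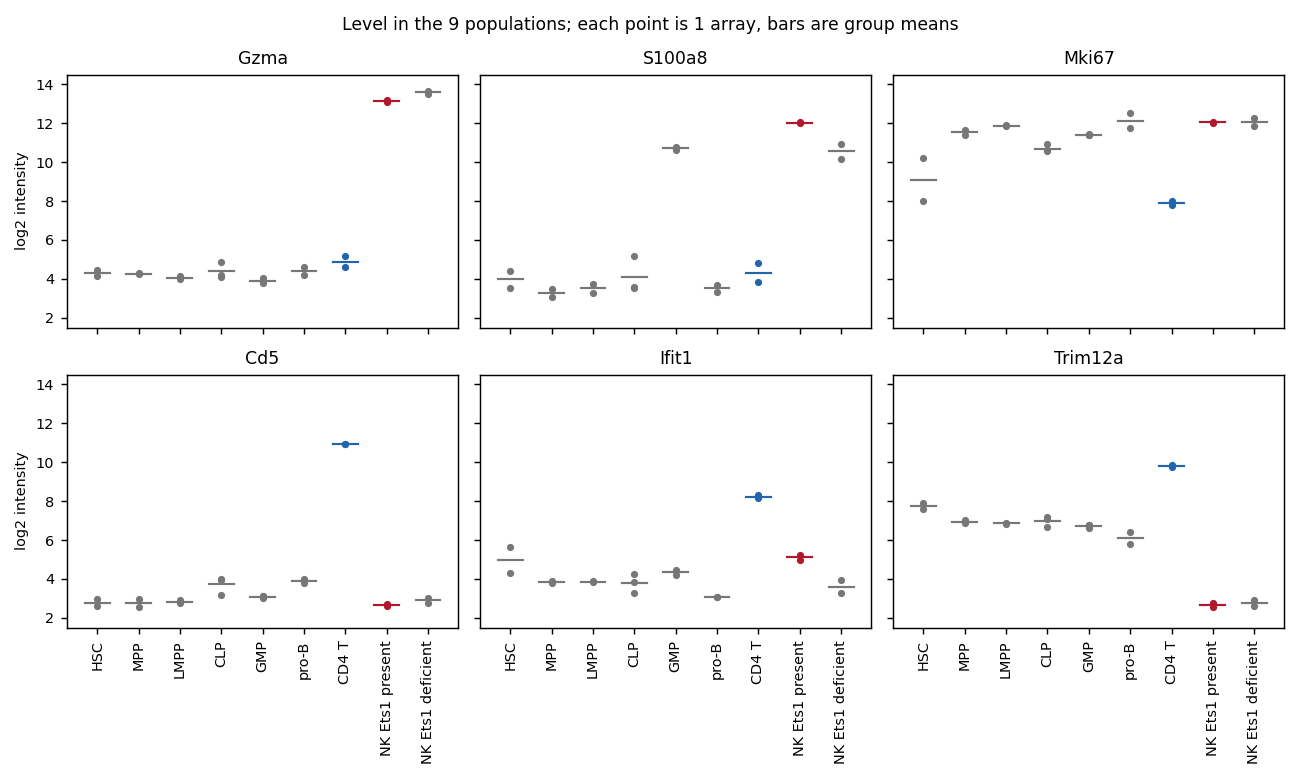
Log2 intensity of 6 genes on every array of the 9 populations (points) with group means (bars), CD4 T in blue and Ets1-present NK in red. Gzma was high on NK arrays alone, S100a8 on NK and GMP arrays, Cd5 and Ifit1 on T arrays, Mki67 was lowest on the T arrays, and Trim12a was lowest on the 4 NK arrays.

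The Ets1-deficient NK arrays share the T arrays as their comparator, so their values are given only beside those of the Ets1-present cells. Gzma was at 13.67 and 13.51 and Eomes at 9.41 and 9.39 on the Ets1-deficient arrays, close to the levels above. Gzmb was at 11.12 and 10.60 and Klra5 at 9.38 and 8.20, against 8.08 and 8.29 for Gzmb and 5.78 and 6.23 for Klra5 with Ets1 present. Cd3g and Cd3d were at 8.69 and 8.36 for Cd3g and 7.89 and 7.84 for Cd3d, between the Ets1-present NK arrays and the T arrays.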

How the data were processed

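RNA of 20 samples was measured on Affymetrix arrays. The deposited values are linear intensities made with RMA by the authors, per the submitters' processing notes, with no version given in the sources used here. They were taken to log2. Of 45101 probe sets, 34958 had 1 gene symbol, 932 several and 9211 none here, and 34754 were matched to RefSeq (GRCm38.p6) for current names. Each gene was read from its probe set of highest mean over all arrays (18194 genes) and tested where 2 or more arrays exceeded their own median (13479 genes). One limma model (version 3.58.1, R 4.3.3; lmFit, eBayes with an intensity trend) covered 20 arrays in 9 groups, with 11 residual degrees of freedom. Calls needed a Benjamini-Hochberg adjusted p below 0.05 over all genes tested. The script was tested on simulated data. Named genes were the 15 largest non-overlapping calls in each direction and members of 25 lists (549 symbols). The groups, lists and members were chosen with earlier results of these data known. The alternatives covered filters, probe set choice, normalization, the arrays fitted, the replicate block, a 2-fold threshold and leaving out each array. Promoter sequences came from RefSeq.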

Additional observations from a re-analysis of the deposited data

How the results depend on the processing

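Over all 13479 genes tested, 1921 were higher and 1381 lower in NK cells. The following settings moved a count by over 1.5 times. Testing every probe set on its own gave 3764 higher and 2922 lower of 29047 probe sets, a longer list by construction. Fitting fewer arrays gave 2776 and 2259 with the 4 compared arrays, and 2702 and 2165 with the mature lymphocyte arrays. Array weights gave 2880 and 2399, centring on housekeeping genes 2435 and 814, and the 2-fold threshold 546 and 303. Leaving out 1 of the 4 arrays gave 1205 to 1542 higher and 761 to 951 lower. Over genes, the deviations from the group means of arrays with the same replicate number correlated at r = -0.0205. With 2 arrays in each group both pairs give this same value, so it cannot show whether the numbers pair the arrays. On the 4 compared arrays, a fit with the replicate number as a block gave 3035 higher and 2523 lower, against 2776 and 2259 without the block. Apart from the settings' own construction, the cause of these moves was not tested. Other settings stayed within 1.5 times: no filter on dim genes (1853 and 1330), a stricter filter (1739 and 1226), averaged probe sets per gene (1843 and 1448), no intensity trend (1941 and 1398), repeated quantile normalization (1869 and 1548) and a fit without the common lymphoid progenitors (2407 and 1926). Of the 3302 calls, 3072 remained without a filter, 2615 under centring, 1965 to 2334 with 1 array left out and 849 at the 2-fold threshold. Of the called genes named, Xaf1 alone changed sign, at 1.76 with averaged probe sets. Genes without a call changed sign too. With averaged probe sets these were Slamf6 (-1.31), Tcf3 (-0.10) and Vav1 (0.099), after repeated quantile normalization Spi1 (-0.012), and under centring Csf3r (0.18), Pcna (0.078), Srgn (0.26) and Vav1 (0.27). With 1 array left out, differences ran from -0.25 to 0.065 for Csf3r, -0.075 to 0.56 for Cd14, -0.080 to 0.16 for Cebpa, -0.15 to 0.22 for Spi1, -0.19 to 0.45 for Lag3, -0.047 to 0.67 for Rab27a, -0.021 to 0.56 for Slamf6, -0.094 to 0.056 for Srgn, -0.30 to 0.62 for Tcf3 and -0.053 to 0.77 for Tyms. Of 13 housekeeping genes 1 was higher and 2 lower. The small number of arrays, and low values without a detection call, limit the precision.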

Other observations

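Of 18 genes of glycolysis and nutrient transport, 3 were higher in NK cells (16.7%, near the 14.3% of all genes). Another 4 were lower (22.2%, against 10.2%). In the 2-fold test none was higher and 1 was lower. The lower count fell to 1 without T array 2 and to 2 without NK array 1. The glucose transporter Slc2a1 was at 9.48 and 9.55 in NK cells and 7.80 and 8.06 in T cells, and hexokinase Hk2 at 5.31 and 5.07 and 3.90 and 2.95. Glycolytic enzymes went both ways. Tpi1 was called higher by 1.78, while Ldha, Aldoa and Pfkl were called lower with differences of -1.39, -1.18 and -1.15. None of these enzymes passed the 2-fold test. Slc1a5, a glutamine transporter, was at 5.82 and 5.86 against 8.47 and 8.35, and its difference of -2.57 (SE 0.30) was -1.69 with the mean of its probe sets. Of 12 BCL2 family genes, which control mitochondrial cell death, 5 were higher (41.7%) and 1 lower (8.33%, against 10.2% of all genes). With any 1 array left out 2 to 3 were higher, and none was in the 2-fold test. The killer Bcl2l11, known as BIM, was higher by 1.64 (SE 0.32), and Bmf was lower with a difference of -2.26 (SE 0.31) (-1.35 with the mean of its probe sets). The protectors Bcl2 and Mcl1 differed by 0.71 and -0.44 and were not called. Another protector, Bcl2l2, was called higher by 1.27, a call that ended with the mean of its probe sets (0.41). Bak1, Bid and Bad, which promote cell death, were called higher too. Of 8 Gimap genes, GTPases of lymphocyte survival, 3 were lower (37.5%, against 10.2% of all genes) and none was higher. Only 1 was lower in the 2-fold test and whichever 1 array was left out. Gimap3 had a difference of -1.87 (SE 0.27).

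Of 12 markers of other innate lymphoid cells, 4 were higher (33.3%, against 14.3% of all genes) and 4 lower (33.3%, against 10.2%). The counts were 3 and 2 in the 2-fold test and 3 and 2 without NK array 1. Zbtb16, which encodes PLZF, was at 6.30 and 6.77 in NK cells and 4.32 and 3.82 in T cells. Kit was higher by 2.84 (SE 0.49) (1.40 with the mean of its probe sets), and Tmem176b was lower with a difference of -2.35 (SE 0.26). Gata3 and Il13 were not called.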
